A study of Mus musculus with 4 samples.

Results

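The S100 proteins are small calcium sensors, each built around a pair of EF-hand calcium-binding loops, that work mostly as dimers. When calcium binds, the dimer opens a surface that docks a partner protein, and several members are also released from cells and act on surface receptors. In brain the best-known member is S100b, a protein of astrocytes and of part of the oligodendrocyte lineage. S100a8 and S100a9 form the heterodimer calprotectin, which fills the cytosol of neutrophils and is also made by some monocytes and by irritated epithelium.

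The family was defined by 10 named genes, S100a1, S100a4, S100a6, S100a8, S100a9, S100a10, S100a11, S100a13, S100a16 and S100b. Members were all probe sets that the array's annotation assigns to 1 of these genes alone, and every such probe set was kept. This gave 14 probe sets for 9 of the 10 genes, out of 45037 probe sets and 18193 singly named genes on the array. The only probe set of S100a11, the annexin A1 partner, also names the relatives Gm12854 and S100a11-ps, so S100a11 has no value of its own. The gene list was proposed with the genotype differences of these same arrays known, those of S100a8 and S100a9 among them. The differences below are therefore a description and carry no test.

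Levels come from 4 Affymetrix arrays of total brain RNA, 1 male mouse per array. Of these mice, 2 were BCAS1 KO (-/-) and 2 were wildtype (+/+), all C57BL/6 animals 8 to 9 weeks old from crosses of heterozygous parents, and the sample descriptions name the cerebrum. The sources used here do not say which part of Bcas1 was disrupted. Bcas1 encodes a protein of myelinating oligodendrocytes, and the design asks how brain RNA differs when the gene is disrupted.

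The values are RMA levels on a log2 scale, where a difference of 1 is a doubling, and array medians lay between 6.49 and 6.51. Correlations between arrays across probe sets, which are not independent replicates, ran between 0.996 and 0.998. The brightest Bcas1 probe set measured 11.05 and 10.75 in the knockout arrays, against 12.17 and 12.21 in the wild-type arrays, while its dimmer probe sets differed by 0.77 and 0.64 in the opposite direction. Neuronal RNA was bright in every array, with the synaptic gene Snap25 at 14.18 and 14.06 in the knockout and 14.15 and 14.17 in wild type. The second knockout array stood apart in genes of nasal mucosa and glands. The pair difference and the medians of some marker lists are given below with and without it. Other results use all the arrays.

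All members but S100b lie on mouse chromosome 3, and S100b lies on chromosome 10. By RefSeq gene order S100a8 and S100a9 are direct neighbours, with 0 protein-coding genes between them. The promoters of this pair, whose levels differ together below, are shown beside that of S100b, which is the glial member. Each is the 250 bases before the annotated start, read 5′ to 3′ on the gene's own strand, from RefSeq on build GRCm38.p6. S100a8 is chr3:90668821-90669070 on the plus strand, S100a9 is chr3:90695722-90695971 on the minus strand, and S100b is chr10:76253586-76253835 on the plus strand. Capitals mark matches to TATAAA (the TATA box), TTGCNNAA (C/EBP), TGANTCA (AP-1) or GAGGAA (the core of PU.1 sites), searched on both strands.

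S100a8: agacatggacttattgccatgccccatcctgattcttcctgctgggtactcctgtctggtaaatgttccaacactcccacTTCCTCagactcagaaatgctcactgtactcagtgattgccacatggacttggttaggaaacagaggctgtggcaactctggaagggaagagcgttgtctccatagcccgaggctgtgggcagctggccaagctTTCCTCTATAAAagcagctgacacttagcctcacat
S100a9: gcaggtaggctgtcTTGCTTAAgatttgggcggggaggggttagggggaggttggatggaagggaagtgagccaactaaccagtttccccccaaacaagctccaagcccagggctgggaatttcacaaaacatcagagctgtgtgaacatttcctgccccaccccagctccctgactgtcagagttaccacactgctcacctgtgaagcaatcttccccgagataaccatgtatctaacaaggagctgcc
S100b: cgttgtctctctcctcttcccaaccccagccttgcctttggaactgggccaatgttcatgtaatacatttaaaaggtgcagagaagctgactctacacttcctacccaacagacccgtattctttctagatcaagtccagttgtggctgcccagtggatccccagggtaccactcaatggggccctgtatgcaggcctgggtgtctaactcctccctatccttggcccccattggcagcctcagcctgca

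The search covered the 300-base windows of 27025 genes, which run 50 bases past the start, and 9 of the 10 members had such a window. A window of S100a10 was not used here. Counting the last base before the start as position -1 and the start as position 1, S100a8 holds TATAAA at position -30 and the PU.1 core on the opposite strand at positions -170 and -36. In S100a9 the letters TATAAA begin at position 1, just past the stretch printed above, and TTGCNNAA is matched at position -236. S100b holds none of the 4 motifs in its window. Of the other members, S100a4 holds TATAAA at position -31 and the PU.1 core on the opposite strand at position 20. S100a16 holds the PU.1 core at position -180 on the opposite strand. S100a11 holds it at position -153, and TGANTCA at positions -136 and -38. TATAAA and the PU.1 core are thus not particular to the pair. No motif was found in both pair members other than TATAAA, which is present in 14.2% of all windows, and the matches do not overlap each other. Matches were present in 28.3% of windows for GAGGAA, 10.8% for TTGCNNAA and 7.93% for TGANTCA. A match is a run of letters and was not examined as a binding site.

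S100a8 and S100a9 were the members with levels at least 2-fold higher in the knockout brains. S100a8 measured 6.36 and 7.02 in the knockout, against 5.60 and 5.44 in wild type. S100a9 measured 6.62 and 7.34 in the knockout, against 5.85 and 5.52 in wild type. For both genes each knockout array lay above each wild-type array, and the second knockout array was the highest of the 4. The means were 6.69 ± 0.47 in the knockout and 5.52 ± 0.11 in wild type for S100a8 (SD, n = 2 each), a difference of 1.17 (SE 0.23) or 2.25-fold. For S100a9 they were 6.98 ± 0.51 in the knockout and 5.69 ± 0.23 in wild type (SD, n = 2 each), a difference of 1.30 (SE 0.27) or 2.45-fold. In whole-tissue RNA, a change in the number of cells of a type cannot be told apart from a change in RNA per cell.

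The pair was not uniform among the knockout mice. The second knockout array exceeded the first by 0.66 for S100a8 and by 0.72 for S100a9. The second wild-type array differed from the first by -0.16 for S100a8 and by -0.33 for S100a9. Against the wild-type mean, S100a8 was 0.84 higher in the first knockout array and 1.50 higher in the second. S100a9 was 0.94 higher in the first knockout array and 1.66 higher in the second. Without the second knockout array the pair averaged 0.89 above wild type, and without the first it averaged 1.58, against 1.23 with both.

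No member passed the test across the whole array. The limma fit over all 45037 probe sets draws the variance of each toward one shared by all. It called 0 of the 14 member probe sets at an adjusted p under 0.05, beside 2 probe sets in all (0.00444%). The brightest probe set of the disrupted gene Bcas1, with a difference of -1.29, was not called either (limma adjusted p 0.742). At an unadjusted p under 0.05, limma held 2 of the 14, S100a8 and S100a9, beside 3.42% of all probe sets. At least 2-fold higher in the knockout without overlap were the same 2 of 14, beside 0.0155% of all probe sets. Because the choice of members used this contrast, nothing is read from these counts. The lowest knockout value exceeded the highest wild-type value by 0.76 for S100a8 and 0.77 for S100a9. At or above 0.76 in this direction there were 0 other probe sets on the array. That limit was taken from the pair itself, after the pair was chosen on this contrast, so nothing is read from this count either. Both probe sets are dim, averaging 6.105 and 6.33 over the arrays, below the array medians, and RMA differences of dim probe sets are compressed.

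**Figure D1:**
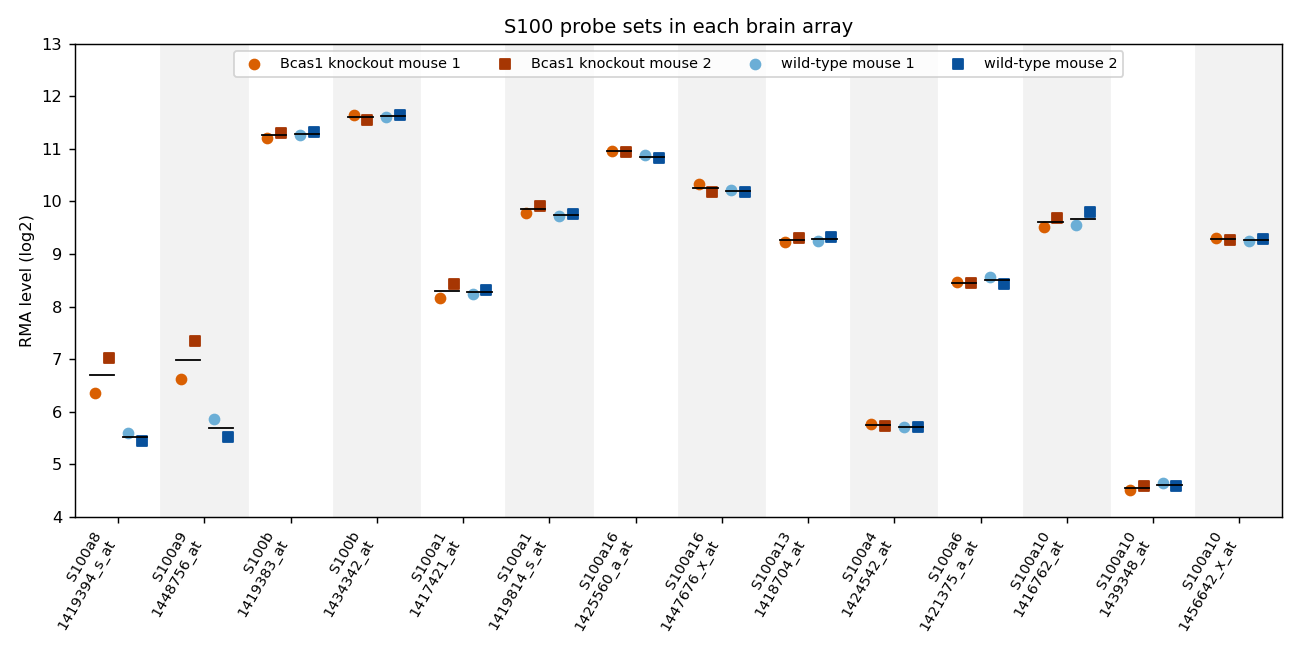
RMA levels (log2, vertical axis) of the 14 S100 probe sets (horizontal axis) in the 2 knockout mice (orange and brown) and the 2 wild-type mice (light and dark blue), with a black line at each group mean. S100a8 and S100a9 are the columns where the groups separate widely, at 6.36 to 7.34 in the knockout and 5.44 to 5.85 in wild type.

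S100b, the glial calcium sensor that binds the kinase Stk38 and the tumour suppressor p53 and is used as a marker of astrocytes, was bright and similar in all 4 mice. Its brighter probe set measured 11.64 and 11.56 in the knockout, against 11.61 and 11.64 in wild type, a difference of -0.03 (SE 0.074). The other read 11.21 and 11.31 in the knockout, against 11.27 and 11.32 in wild type, a difference of -0.04 (SE 0.077). The groups overlapped in both, and both probe sets gave differences smaller than their SE.

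S100a1, which tunes ryanodine receptors and the calcium pump of muscle and is also present in neurons, has a pair of probe sets. The brighter measured 9.78 and 9.92 in the knockout, against 9.73 and 9.76 in wild type, a difference of 0.11 (SE 0.083). The knockout arrays lay just above the wild-type arrays, with a gap of 0.02. The dimmer probe set measured 8.17 and 8.42 in the knockout, against 8.23 and 8.32 in wild type, a difference of 0.02 (SE 0.11), and here the groups overlapped.

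S100a16, an S100 protein known from astrocytes, had higher knockout values in 1 of its probe sets. It measured 10.97 and 10.95 in the knockout, against 10.88 and 10.83 in wild type, a difference of 0.11 (SE 0.071) without overlap. The x_at probe set, a type whose probes may also match other transcripts, measured 10.33 and 10.19 in the knockout, against 10.22 and 10.19 in wild type, and overlapped. S100a13, which takes part in the release of Fgf1 and Il1a from cells, measured 9.23 and 9.30 in the knockout, against 9.24 and 9.32 in wild type, a difference of -0.02 (SE 0.077).

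Members known from fibroblasts, motile cells and membranes had differences smaller than their SE. S100a4, a binder of non-muscle myosin that marks fibroblasts and some white-matter astrocytes, measured 5.77 and 5.72 in the knockout, against 5.70 in both wild-type arrays, a difference of 0.05 (SE 0.070). S100a6, or calcyclin, the partner of Cacybp, measured 8.46 and 8.45 in the knockout, against 8.57 and 8.43 in wild type, a difference of -0.05 (SE 0.082). Its knockout values lay within the wild-type range.

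S100a10, also called p11, lost the ability to bind calcium and pairs with annexin A2 to carry channels and serotonin receptors to the cell surface. Its brightest probe set measured 9.51 and 9.69 in the knockout, against 9.55 and 9.80 in wild type, a difference of -0.08 (SE 0.12). The x_at probe set measured 9.30 and 9.26 in the knockout, against 9.24 and 9.29 in wild type. The remaining one, at 4.51 and 4.59 in the knockout and 4.63 and 4.58 in wild type, was below the lower quartile of every array. All 3 overlapped between the genotypes, with differences between -0.08 and 0.02. The probe set shared by S100a11 and its relatives averaged 7.045 ± 0.15 in the knockout and 6.93 ± 0.099 in wild type (SD, n = 2 each), and cannot be assigned to 1 of them.

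Setting the pair against the other members array by array separated them in each knockout mouse. In the first knockout array the pair averaged 0.89 above the wild-type mean, while the 12 probe sets of the 7 other members had a median of -0.01 and a range of -0.17 to 0.13. In the second knockout array the pair averaged 1.58 and the other 12 had a median of 0.02 and a range of -0.07 to 0.18. In the wild-type arrays the pair deviated by 0.12 in the first and -0.12 in the second, where the other members reached -0.13 to 0.07 and -0.07 to 0.13. The pair thus lay outside the range of the rest of the family in both knockout arrays. It also lay just outside that range in the wild-type arrays. Deviations there are taken from the mean of the same arrays and mirror each other, so this is 1 observation. Among the 12, differences between the genotypes ran between -0.08 and 0.11 with a median of 0.00, and 6 were higher and 6 lower in the knockout. Over all 45037 probe sets the median was also 0.00.

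By overlap alone, 5 of the 14 probe sets had both knockout arrays above both wild-type arrays, beside 13.9% of all probe sets, and 0 of the 14 had both below, beside 13.2%. The 5 were S100a8, S100a9 and 1 probe set each of S100a1, S100a16 and S100a4. For the last of these, as for S100a1, the gap was 0.02, close to the rounding of the deposited values, and for S100a16 it was 0.07.

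**Figure D2:**
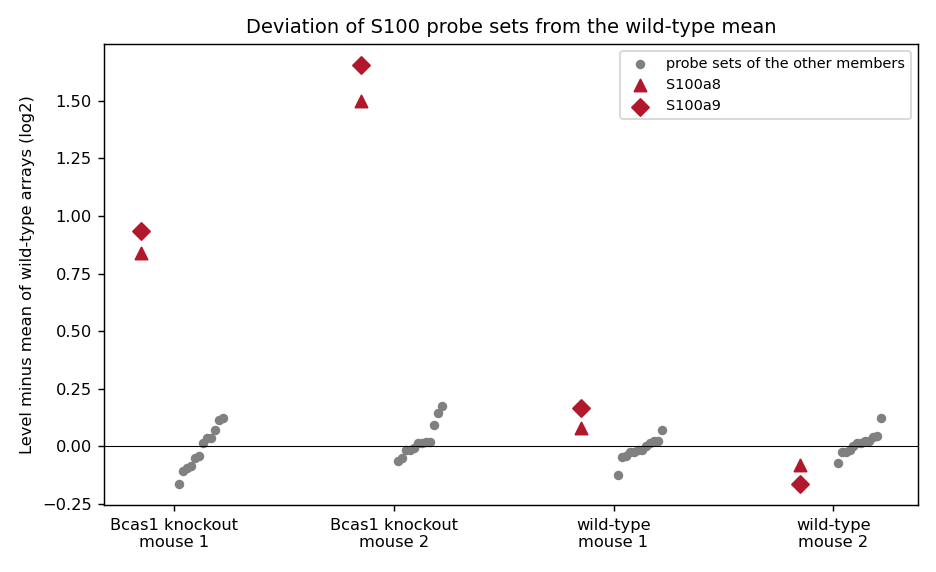
Deviation of each S100 probe set from its wild-type mean (log2, vertical axis) in the 4 arrays (horizontal axis), with S100a8 and S100a9 in red and the 12 other probe sets in grey. The pair sits at 0.84 to 1.66 in the knockout arrays, above every grey point, which lie between -0.17 and 0.18.

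Neutrophil genes were considered next, since calprotectin is their most familiar product. Of 26 genes in a list of neutrophil markers that left out the pair, 21 had a probe set of their own, and most were dim. Ngp, a neutrophil granule protein, measured 5.81 and 6.40 in the knockout, against 5.68 and 5.53 in wild type, a difference of 0.50 (SE 0.21). Camp, the cathelicidin of neutrophil granules, measured 6.59 and 6.60 in the knockout, against 6.32 and 6.41 in wild type, a difference of 0.23 (SE 0.074).

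Chil3, a chitinase-like protein of neutrophils and macrophages that is also on the monocyte list, measured 4.04 and 4.12 in the knockout, against 3.17 and 3.66 in wild type. Mpo, the myeloperoxidase of early granules, measured 4.85 and 4.99 in the knockout, against 4.70 and 4.62 in wild type. These 4 genes, with the largest differences of the list, had no overlap between the genotypes. Ltf and Prtn3, the brightest granule genes of the list, differed by 0.10 (SE 0.083) and -0.13 (SE 0.15).

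As a list, the neutrophil markers had a median difference of 0.04, with 15 of 21 higher and 6 lower in the knockout, beside a median of 0.01 and 51.7% higher over all genes. Limma called 0 of the 21 at the adjusted threshold and 3 (Chil3, Mpo and Camp) at an unadjusted p under 0.05, a threshold that 2.75% of all genes passed (501 of 18193). Both knockout arrays lay above both wild-type arrays for 6 of 21, beside 15.5% of all genes. The knockout mice gave unequal values here. Mouse 1 of the knockout had 9 of 21 above the wild-type mean with a median deviation of -0.07, while 42.8% of all genes were above it. Mouse 2 had 19 of 21 above it with a median of 0.19, beside 60.1% of all genes. Summed on the linear scale, the list came to 821 and 970 in the knockout, against 837 and 838 in wild type. A linear sum is weighted to the brightest genes, so its small differences are not read. Among these was Prtn3, at 6.41 and 6.78 in the knockout, against 6.65 and 6.80 in wild type. The part of neutrophil RNA in the S100a8 and S100a9 values was not tested.

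The second knockout array also held transcripts of nasal mucosa and glands, a list that includes genes picked earlier from these arrays. Obp1a, an odorant-binding protein, measured 3.46 and 8.92 in the knockout, against 3.41 and 4.15 in wild type. The 16 measured genes of that list deviated from wild type by a median of -0.06 in knockout mouse 1 and 0.64 in knockout mouse 2. Their summed level was 3132 and 4977 in the knockout, against 3229 and 3318 in wild type. Such sums weigh the brightest genes most, so small differences between them are not read. Brightest was Gnal, at 10.95 and 11.10 in the knockout and 11.03 and 11.04 in wild type. Adcy3 followed, at 9.37 and 9.51 in the knockout and 9.30 and 9.46 in wild type. S100a8 and S100a9 were 0.84 and 0.94 above wild type in the first knockout array, and 1.50 and 1.66 in the second. The part of nasal tissue in the higher values of the second array was not tested.

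Squamous epithelium, where calprotectin is induced by irritation, differed by a median of 0.06 across 14 measured genes, 8 higher and 6 lower, with medians of -0.03 in knockout mouse 1 and 0.09 in knockout mouse 2. Limma called 0 of them at either threshold, beside 2.75% of all genes at an unadjusted p under 0.05. Among them Krt15 differed by 0.25 (SE 0.14) and Krt4 by -0.17 (SE 0.19). Meningeal fibroblast genes were higher in 9 of 9, beside 51.7% of all genes, with a median of 0.19 and medians of 0.12 and 0.28 in the first and second knockout arrays. Both knockout arrays lay above both wild-type arrays for 6 of the 9, beside 15.5% of all genes. Limma called 0 of the 9 at the adjusted threshold and held 2 at an unadjusted p under 0.05, beside 2.75% of all genes. Of these, Col1a1 measured 6.28 and 6.31 in the knockout, against 5.70 and 6.08 in wild type, and Fmod 8.94 and 9.12 in the knockout, against 8.57 and 8.68 in wild type. S100a4 and S100a6, the members known from fibroblasts, differed by 0.05 and -0.05. The part of meningeal cells in the S100a8 and S100a9 values was not tested.

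Lists of glia and other cells had medians of -0.02 to 0.06. The astrocyte list had a median difference of 0.01 over 12 genes, the mature oligodendrocyte list 0.06 over 11, the microglia and macrophage list -0.01 over 11, the endothelium list 0.06 over 7 and the neuron list -0.01 over 8. Erythroid genes had a median of 0.02, from 5 measured genes, and monocyte and lymphocyte genes -0.02, from 8. The mature oligodendrocyte list leaned one way, with 10 of 11 genes higher in the knockout, beside 51.7% of all genes. Its genes were above the wild-type mean in 11 of 11 in the first knockout array, beside 42.8% of all genes. In the second knockout array they were above it in 6 of 11, beside 60.1% of all genes. Both knockout arrays lay above both wild-type arrays for 4 of 11, beside 15.5% of all genes. Endothelium genes were higher in 6 of 7, with 1 that did not overlap. Of the rest, 7 of 12 astrocyte, 4 of 11 microglia and macrophage, 2 of 8 neuron, 4 of 5 erythroid and 4 of 8 monocyte and lymphocyte genes were higher. Limma called 0 genes of these 7 lists at the adjusted threshold, and at an unadjusted p under 0.05 it held 1 each of the astrocyte (Gfap), mature oligodendrocyte (Myrf) and monocyte and lymphocyte (Chil3) lists, beside 2.75% of all genes. Gfap, the astrocyte filament, measured 9.01 and 8.97 in the knockout, against 8.64 and 8.77 in wild type, a difference of 0.29 (SE 0.081). The dimmer Gfap probe sets differed by 0.10 (SE 0.074) and 0.17 (SE 0.090), also without overlap. Beside these, the S100b probe sets differed by -0.03 and -0.04.

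**Figure D3:**
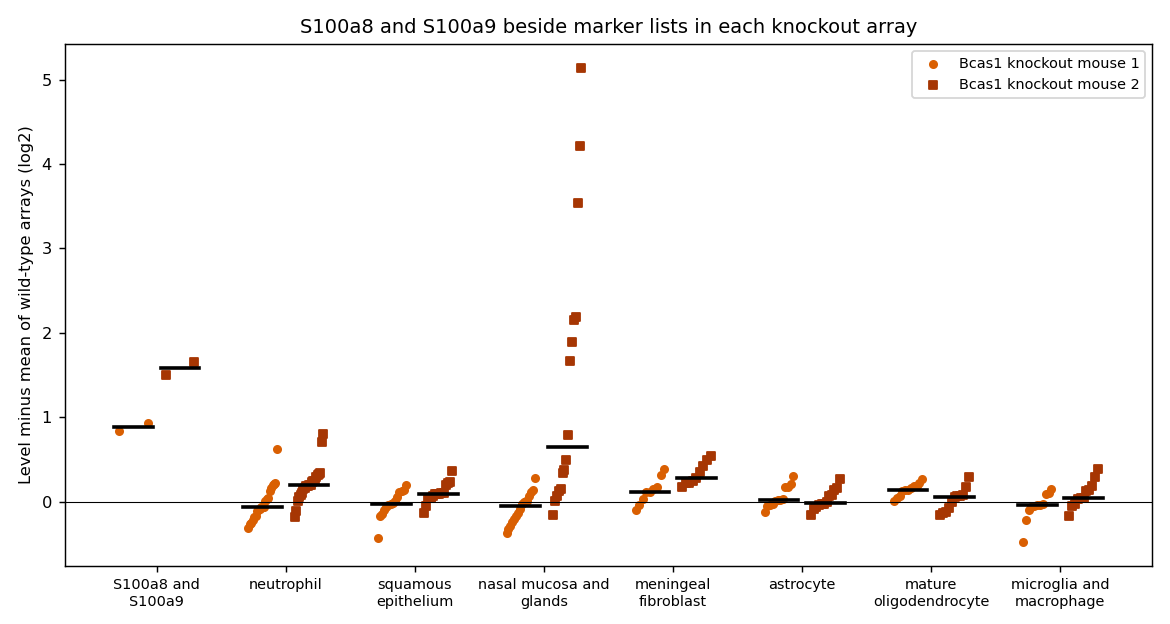
Deviation from the wild-type mean (log2, vertical axis) in the first (orange) and second (brown) knockout array for S100a8 and S100a9 and for 7 marker lists (horizontal axis), 1 point per gene and a black line at each median. The pair is at 0.89 and 1.58, the neutrophil medians are -0.07 and 0.19, and the highest nasal points belong to the second array.

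Relatives outside the member list were mostly dim. S100a5, which is known from olfactory sensory neurons, measured 8.11 and 8.90 in the knockout, against 8.26 and 8.21 in wild type, so that it was high in the second array alone. S100a3, known from hair follicles, measured 4.65 and 5.01 in the knockout, against 4.53 and 4.65 in wild type. S100g, the vitamin D-dependent calcium buffer of gut, measured 3.54 and 3.40 in the knockout, against 3.59 and 3.65 in wild type. S100a14 and S100a7l2 differed by 0.08 (SE 0.091) and 0.03 (SE 0.20). Limma called 0 of these 5 at the adjusted threshold and 0 at an unadjusted p under 0.05, beside 2.75% of all genes. The fused S100 proteins of skin, such as filaggrin (Flg) and trichohyalin (Tchh), had a median difference of -0.03 over 5 measured genes, with Tchh at 0.17 (SE 0.083). They had 0 calls by either threshold in limma, beside 2.75% of all genes at the unadjusted one.

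Receptors for secreted S100 proteins, each read from its brightest probe set, had differences of -0.21 to 0.29. Tlr4, the innate immune receptor that calprotectin engages, measured 4.84 and 4.79 in the knockout, against 4.81 and 5.24 in wild type. Ager, the receptor RAGE, measured 5.66 and 5.55 in the knockout, against 5.92 and 5.68 in wild type, a difference of -0.20 (SE 0.11). The other Ager probe set, about as bright, overlapped at 5.53 and 5.45 in the knockout and 5.49 and 5.55 in wild type, a difference of -0.03 (SE 0.08). Cd36, a scavenger receptor, differed by 0.29 (SE 0.18) and Cd33, a myeloid lectin, by -0.15 (SE 0.10). Some dimmer probe sets lay outside that range. The dimmest of Cd36 measured 3.48 and 3.25 in the knockout, against 2.94 and 3.07 in wild type, a difference of 0.36 (SE 0.11) without overlap and with an unadjusted limma p of 0.0238. A dimmer Tlr4 probe set differed by -0.24 (SE 0.15), with overlap. The 12 genes of the receptor list had a median of -0.03, and 4 were higher and 7 lower in the knockout. The knockout arrays lay above wild type without overlap for 0 of the 12 and below it for 2, beside 15.5% and 12.8% of all genes. Limma called 0 of these brightest probe sets at either threshold, beside 2.75% of all genes at an unadjusted p under 0.05. So few genes can show little against that share.

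Intracellular partners were centred near 0. The 27 measured genes had a median difference of 0.01, 15 higher and 10 lower in the knockout, with 0 called by limma and 2 at an unadjusted p under 0.05, beside 2.75% of all genes. The knockout arrays lay above wild type without overlap for 6 of the 27 and below it for 3, beside 15.5% and 12.8% of all genes. Those 2 were Il1a, the cytokine exported with S100a13, and Htr4, a serotonin receptor that S100a10 carries. Il1a was dim, at 3.70 and 3.86 in the knockout and 3.47 and 3.44 in wild type. Htr4 measured 5.84 and 5.91 in the knockout, against 6.18 and 6.14 in wild type, while its dimmer probe set measured 4.16 and 4.56 in the knockout and 3.99 and 4.16 in wild type, a difference of opposite sign. Anxa2, which pairs with S100a10, measured 8.29 and 8.80 in the knockout, against 8.33 and 8.43 in wild type, and Anxa1, the partner of S100a11, measured 6.76 and 7.13 in the knockout, against 6.78 in both wild-type arrays. By these brightest probe sets both annexins were high in the second knockout array alone. The dimmer Anxa2 probe sets differed by 0.05 (SE 0.13) and -0.04 (SE 0.10), with overlap.

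**Figure D4:**
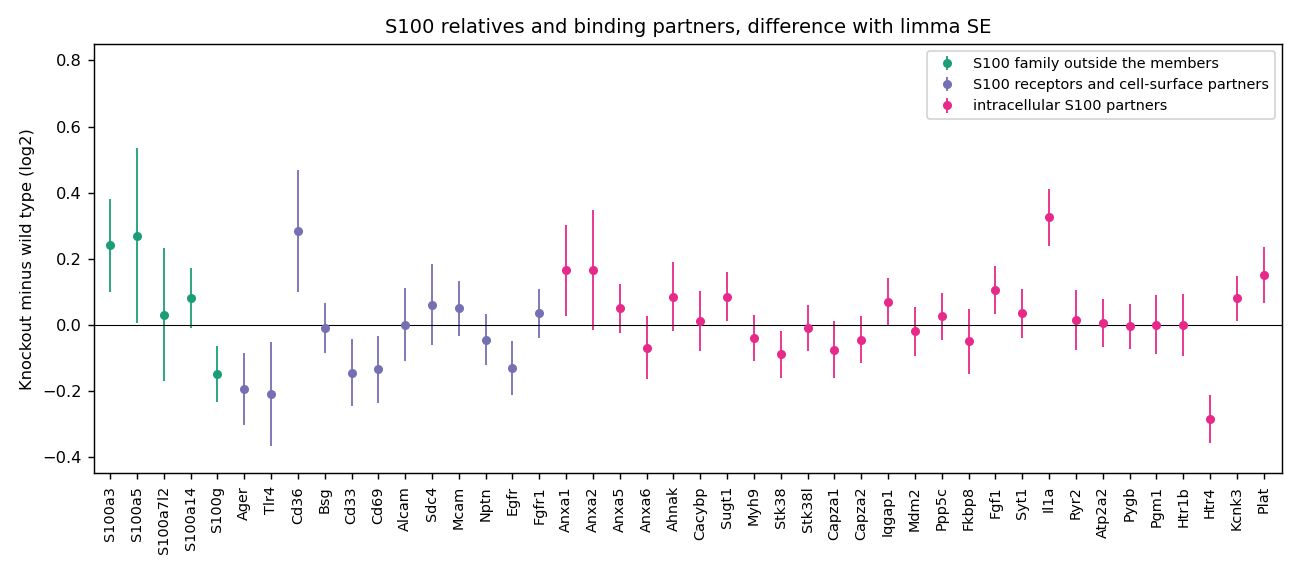
Knockout minus wild-type difference (log2, vertical axis) of S100 relatives (green), receptors and surface partners (purple) and intracellular partners (pink), by gene on the horizontal axis, with limma SE bars, each gene by its brightest probe set. The largest are Il1a at 0.33 and Cd36 and Htr4 at 0.29 and -0.29, against 1.17 and 1.30 for S100a8 and S100a9.

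Likeness was measured as the Euclidean distance between the 4 deviations of a gene from its own mean and the average of those of S100a8 and S100a9, where a flat gene lies at 1.34 and the pair members lie 0.18 apart. Gh, growth hormone, was nearest at 0.58, with 6.88 and 7.53 in the knockout against 6.44 and 6.55 in wild type. Ngp followed at 0.74, and Dnaic1, a dynein component of motile cilia, at 0.76, with 6.96 and 6.97 in the knockout against 6.45 and 6.20 in wild type. Sectm1a, Zmynd12, Gpx6, E2f7 and Oas1c completed the nearest 8, at 0.76 to 0.78. The 7 other S100 members lay at 1.21 (S100a1) to 1.40 (S100a10), about where a flat gene lies. With 4 arrays such a ranking is a description and implies no shared control.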

How the data were processed

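Brain RNA of 2 BCAS1 KO and 2 wildtype mice was labelled with a 3' IVT kit that reads mostly transcript ends, per the labels' protocols. The authors deposited 1 log2 level per probe set and array, made with RMA per the submitters' processing notes; software and settings are not given there. Values carry 2 decimals and no detection calls. Arrays have no depth, and their number limits the precision.

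The 64 control probe sets of 45101 rows were left out. Genes were named from the platform annotation, in which 34945 probe sets named 1 gene, 932 several and 9160 none. The genotypes were set against each other with limma 3.58.1 under R 4.3.3, knockout minus wild type, two-sided, with Benjamini-Hochberg adjustment over 45037 probe sets at 0.05, and 2 residual and 2.74 prior degrees of freedom. The fit was tested on simulated data. Exact permutation of so few arrays reaches 0.333 at best and was not used. In list results each gene is its brightest probe set.

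The members and the 15 gene lists were chosen with earlier results of these data known. Named genes were every member, Bcas1, the 4 largest differences of each list, the 2 brightest of each cell type list and the 8 nearest profiles; not all are reported here. Alternatives were a filter on dim probe sets, median centring, a trended robust variance, quantile normalization applied again, linear group means, 1 probe set per gene, leaving out each array and a replicate block. Promoters are from RefSeq.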

Additional observations from a re-analysis of the deposited data

How the results depend on the processing

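The higher level of S100a8 and S100a9 in the knockout kept its direction in every alternative that could give it. Of the 14 alternative values of these probe sets, 0 changed sign. Both knockout arrays lay above both wild-type arrays, so leaving out an array could not reverse the sign, and the kept direction is not a test. The pair difference, 1.23 as reported, lay between 0.89 and 1.58 when each array was left out in turn, was 1.27 from linear group means and 1.25 after repeated quantile normalization, and set against the other members it was 1.25 with 1 probe set per gene. The filter on dim probe sets, which kept probe sets above the median level, removed S100a8 and S100a9 and left 10 of the 14 member probe sets, so it gives no value for the pair. The other 12 probe sets stayed within 0.20 of 0, and 12 of all 108 alternative values changed sign, all among them. Limma called 0 member probe sets in each setting. Over the whole array it called 2 probe sets, against 1 with the filter on dim probe sets (fewer probe sets tested), 10 with an intensity trend and robust variance, and 0 with any array left out. The replicate block gave 0 calls over the whole array. Its pair difference was the same 1.23, as a block must give in this balanced design. Mice share only a number between genotypes, and deviations of same-numbered mice correlated at 0.241 across probe sets. The medians of marker lists without the second knockout array, added after seeing the data, were -0.07 for neutrophil, -0.06 for nasal, -0.03 for squamous and 0.12 for meningeal genes. With 2 dim probe sets and 2 mice per group, the size of the pair difference is loosely determined.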
